A study of Rattus norvegicus with 24 samples.

Results

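Windows of 1 Mb that held few probes of a CpG island array were followed in rat mammary carcinomas and normal mammary glands. The window of a probe was its start position on the rn4 assembly divided by 1000000 and rounded down, on chromosomes 1 to 20. Of the 2032 windows that held a probe, 391 (19.2%) held 10 or fewer and are called island-poor below. They carried 2259 of the 89403 probes on these chromosomes (2.53%), out of 93024 probes on the array. The rule used position and probe number alone and no measured value.

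DNA of 24 tissues of female Sprague-Dawley rats was hybridized to 1 array each. There were 3 normal mammary glands of non-irradiated rats (NMG), 7 carcinomas of rats given 2 Gy of whole-body gamma rays at 3 weeks of age, before puberty (IR-3W), 7 carcinomas of rats given 2 Gy at 7 weeks, after puberty (IR-7W), and 7 spontaneous carcinomas of non-irradiated rats (Spontaneous). All rats were switched to a diet rich in corn oil, which potentiates mammary tumors. The 21 tumors came from 19 rats, since 1 rat of IR-3W and 1 of IR-7W gave a pair each. DNA captured by a methyl-CpG binding domain protein was labelled with Cy5 and unenriched DNA of the same tissue with Cy3, so a high log2 ratio of Cy5 over Cy3 means more methylated DNA at a probe. Ratios were centered on the median of each array, so 0 stands for the median probe of that array and not for unmethylated DNA. Centering takes out any shift shared by the probes of an array, so rises and falls below are relative to that median. All 3 glands were scanned on 1 day, with Spontaneous tumor 3 as the only tumor, so tissue and scan day can hardly be told apart. Whole tissue was used, and a change in the mix of cells cannot be told apart from a change of methylation within cells. The probes carry no gene names here, so windows are given by position and the labelled tissues could not be checked against marker genes.

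CpG islands are short stretches rich in CpG dinucleotides, often at promoters, and most are free of methylation in normal tissue. Islands are crowded in gene-rich parts of a genome and sparse in gene-poor parts, which tend to replicate late. In many cancers gene-poor domains lose methylation over long stretches, while some CpG islands, frequently those of developmental genes, gain it.

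The island-poor windows held a median of 6 probes, against 30 over all windows and 524 in the densest window. Only 15 windows held 1 probe and 31 held 2. Probes were grouped into islands, meaning runs of probes at most 1000 bp apart within a window. There were 502 islands in the island-poor windows, with a median of 4 probes each, and 13363 in the other windows, with a median of 6. In 295 of the 391 windows (75.4%) all probes belonged to 1 island, so the value of an island-poor window was in most cases the value of 1 island. The other windows held a median of 6 islands. The probes themselves were alike, with a median length of 45 bp in both sets. The median gap to the nearest probe was 35 bp in island-poor windows and 24 bp elsewhere, and 1.68% against 0.355% of probes lay more than 1000 bp from any other. A neighbouring window that was island-poor or without probes lay beside 70.6% of the island-poor windows and 41.5% of the others. Positions past the first or last window of a chromosome were counted here as windows without probes. Chromosome 13 had the largest share of island-poor windows (30.4% of 79), followed by chromosome 16 (27.3% of 66) and chromosome 9 (25.5% of 94). The shares were smallest on chromosome 12 (2.33% of 43) and chromosome 10 (6% of 100).

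Signals in the island-poor windows were nearly as often above background as elsewhere. In the unenriched channel 87.8% to 98.7% of their probes were well above background on a tumor array and 89.8% to 96.8% on a gland array. In the enriched channel the share was 92.0%, 85.8% and 95.1% in glands 1, 2 and 3 and ran from 71.0% to 92.9% with a median of 82.3% in the tumors, where that of the other probes ran from 72.4% to 93.9%. The lowest share of all was that of Spontaneous tumor 3. No island-poor probe was saturated on any array. Precision in the comparisons below is limited by how few arrays there were, above all of glands.

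By probe, the level in island-poor windows lay slightly above that of the other probes on every array. By window it did not in the tumors, where the median level was 0.11 in island-poor windows and 0.18 in the others, against 0.13 and 0.08 in the glands. Their median log2 ratio was 0.13, 0.10 and 0.15 in the 3 glands and ran from 0.02 to 0.24 with a median of 0.13 over the tumors. The median of the other probes ran from -0.04 to -0.02 in the glands and from -0.05 to -0.02 in the tumors. The island-poor median averaged 0.12 ± 0.02 (SD, n = 3) over NMG. For IR-3W tumors the average was 0.09 ± 0.07, for IR-7W tumors 0.14 ± 0.06 and for Spontaneous tumors 0.13 ± 0.06 (SD, each n = 7), and all 4 groups overlapped. In IR-3W, 4 tumors lay at or below 0.04 and the others at 0.12 to 0.18. A log2 ratio above 1 was reached by 15.8% to 21.4% of the island-poor probes in the glands and by 15.98% to 31.3% in the tumors, with medians of 20.01% and 24.8%. Among the other probes the shares were 16.2% to 20.3% in the glands and 19.5% to 27.0% in the tumors. Shares in the island-poor windows were lowest on gland 2, IR-3W tumors 2 and 6 and Spontaneous tumor 3, and highest on IR-7W tumor 4.

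**Figure D1:**
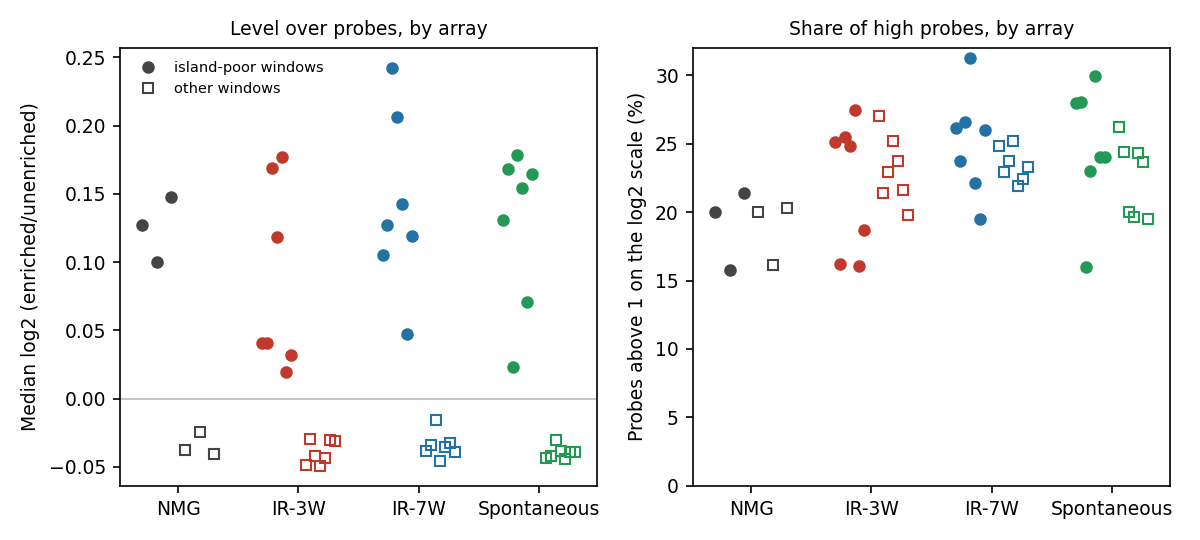
Median log2 ratio (left) and percent of probes above 1 on that scale (right) for each of the 24 arrays, by group, with filled circles for probes of island-poor windows and open squares for the other probes of chromosomes 1 to 20. Every filled circle on the left lies above 0, from 0.02 to 0.24, and every open square lies below 0.

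The windows of 1 or 2 probes had the highest levels, and above that number the level did not fall steadily with the number of probes. The study scored probes against others of the same melting temperature, which the log2 ratios here do not. The part of probe properties in these levels was not tested. They had a median level of 0.83 in the glands and 1.22 in the tumors, and 46.8% of their probes averaged above 1 in the glands. In windows of 3 to 5 probes the medians were 0.06 and 0.01, with 20.6% of probes above 1 in the glands. In windows of 6 to 10 probes they were 0.09 and 0.03, with 16.3% of probes above 1. Windows of 11 to 20 probes, just past the limit, had medians of 0.01 and 0.02 and 15.5% of probes above 1. In windows of 21 to 50 probes the medians were 0.02 and 0.12, with 15.9% of probes above 1, and in those of over 50 they were 0.16 and 0.28, with 19.6%, so the medians were above those of windows of 3 to 5 and of 6 to 10 probes. At the limit itself, the 41 windows of 10 probes had medians of 0.03 in the glands and -0.15 in the tumors, and the 47 windows of 11 probes had 0.02 and -0.02. Levels of single windows were spread more widely than elsewhere. The SD of the gland level over windows was 1.02 among island-poor windows and 0.54 among the others, and 65 island-poor windows (16.6%) averaged above 1 in the glands, against 128 of 1641 others (7.80%). A window of few probes is averaged over fewer values, which widens this spread by construction.

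Both ends of this range were single islands. The highest levels in the glands among windows of at least 5 probes were those of window H1 on chromosome 6, with 10 probes at 15352346 to 15353388, and of window H2 on the same chromosome, with 5 probes at 47899335 to 47899727. Window H1 measured 3.83, 3.23 and 4.26 in the glands and 2.54 to 6.18 with a median of 3.61 in the tumors. Window H2 measured 3.83, 3.19 and 4.18 in the glands and 2.59 to 6.28 with a median of 3.78 in the tumors. Glands and tumors overlapped in both, and the highest value of both was that of IR-3W tumor 1, the tumor with the widest quartiles over the other probes of its array (-0.77 and 1.18). The lowest levels were those of window H3 on chromosome 7, with 5 probes at 84930201 to 84930669, and of window H4 on chromosome 4, with 6 probes at 168986807 to 168987204. Window H3 measured -1.31, -1.36 and -1.80 in the glands and -2.01 to -0.57 with a median of -1.21 in the tumors. Window H4 measured -0.84, -0.88 and -1.43 in the glands and -1.43 to -0.19 with a median of -0.86 in the tumors, so glands and tumors overlapped again. At H3 only 48.6% of the tumor spots were well above background in the enriched channel.

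The main question put to these windows was whether their methylation differed between carcinomas and normal gland. In the tumors 25 island-poor windows rose (6.39%) and 57 fell (14.6%) at an adjusted p under 0.05 in a limma fit over all windows with Benjamini-Hochberg adjustment. Over all 2135 windows of the fit, chromosome X included, 10.5% rose and 8.1% fell. With the median over probes as the value of a window, 7.67% of the island-poor windows rose and 15.9% fell, against 10.1% and 16.8% of all, so the higher share of falls was seen with window means and not with window medians. The median difference, tumors minus NMG, was 0.07 on the log2 scale over the island-poor windows and 0.05 over all, and it was positive in 235 of 391 island-poor windows (60.1%) and in 60.6% of all. These signs are relative to the array medians. The study reported a general loss of methylation in these tumors, which centered ratios cannot show. All 21 tumors lay below all 3 glands in 28 island-poor windows (7.16%), against 3.47% of all windows, and above them in 5 (1.28%), against 3.84%. The called windows were spread over 13 chromosomes for the rises and 17 for the falls.

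Single probes gave a more even picture. Of the 2259 island-poor probes 482 passed (21.3%, against 22.8% of all 93024 probes) in limma at an adjusted p under 0.05. Of these 191 rose (8.46%) and 291 fell (12.9%), against 10.5% and 12.3% of all probes. All tumors lay above all glands at 37 island-poor probes (background 2.91%) and below them at 178 (background 6.95%). The median probe difference was 0.10 in island-poor windows and 0.06 over all probes. In 158 of the 391 windows (40.4%) no probe passed, in 107 the passing probes all fell, in 86 all rose, and in 40 (10.2%) some rose and some fell. In the other 1641 windows, which hold more probes each, 3.05% had no passing probe and 76.7% had both directions.

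The split between rises and falls depended on how the values were scaled, and no island-poor window of either kind stayed called with scan day or slide in the fit. A few island-poor probes and islands still passed, as given further below. After quantile normalization 22 island-poor windows rose and 86 fell (5.63% and 22.0%), against 10.6% and 23.5% of all windows, and after normexp background correction 16 rose and 63 fell, against 1.97% and 10.1% of all. Under normexp 7 of the 25 rises and 46 of the 57 falls were still called, and under quantile normalization 20 and 57. On the rebuilt LogOdds, a score from a methylated and an unmethylated mode fitted to each array, which leaves out the melting temperature of the probes and is thus not the study's own score, 122 rose (31.2%, against 23.3% of all windows) and 0 fell, and of the 57 windows that fell on the log2 ratio 31 were still lower there. For probes the LogOdds gave 597 rises and 39 falls, against 26.8% and 0.765% of all probes, and normexp 174 and 295, against 8.47% and 11.8%. The study's own LogOdds showed mostly loss in the tumors, so the rebuilt score runs the other way. With scan day or slide as a block, 0 island-poor windows passed in limma, as did 0% of all windows. Fewer arrays bear on the difference with such a block, and whether the calls ended through these batches or through the lost precision was not tested. With scan day as a block the value of a window is Spontaneous tumor 3 minus the glands. It had the called sign in all 25 rises and 57 falls, which is no independent check, since this tumor and these glands entered the calls. With slide as a block the value is this tumor minus gland 2 alone. Without gland 2, 3 windows rose and 19 fell (5.63% called, against 4.31% of all windows, of whose calls 45.7% were rises). Without gland 3, 5 rose and 33 fell (9.72% called, against 8.15% of all windows, of whose calls 50% were rises). All of these were among the 25 and 57.

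**Figure D2:**
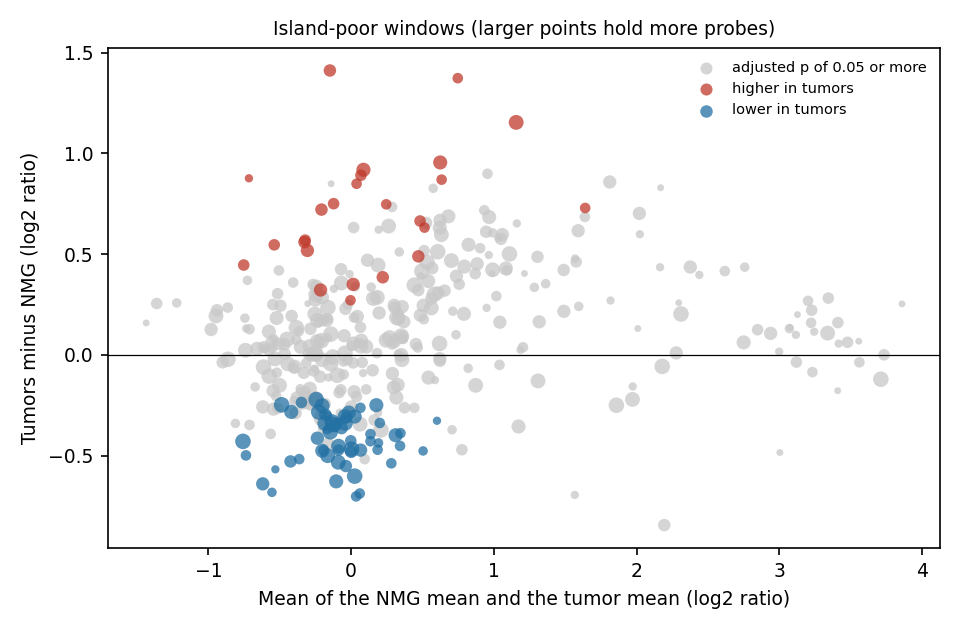
Difference in log2 ratio between 21 tumors and 3 glands (vertical axis) against the mean of the gland mean and the tumor mean (horizontal axis) for the 391 island-poor windows, with larger points for more probes. Red points are the 25 windows that rose and blue points the 57 that fell at an adjusted p under 0.05, and no blue point lies above 1 on the horizontal axis.

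The levels of the called windows are given as a description, since the gland level is part of the difference that chose them. The windows that fell started at a median of 0.12 in the glands (range -0.54 to 0.76) and reached -0.30 in the tumors, with a median size of 0.41 and a largest of 0.70. The windows that rose started at -0.37 (range -1.15 to 1.28) and reached 0.46, with a median size of 0.72 and a largest of 1.41. Sorted by the mean of gland and tumor level, 37 of the 172 island-poor windows below 0 fell and 11 rose (21.5% and 6.4%, against 15.2% and 8.15% of the other windows at that level). Between 0 and 1, 20 of 145 fell and 12 rose (13.8% and 8.28%, against 2.21% and 15.8% of the others). Above 1, 0 of 74 fell and 2 rose, in limma at the same threshold. By window, falls were thus called only where the mean level of both tissues was at most 1, as among the other windows, of which 0 of 143 above 1 fell and 11 rose. By probe 10 of the 432 above 1 fell and 22 rose (2.31% and 5.09%), against 0.868% and 10.2% of the other probes at that level.

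The share of falls by probe number changed with the unit that was averaged. By window, 16.1% of those with 3 to 5 probes and 15.8% of those with 6 to 10 fell, against 11.7% with 11 to 20, 8.78% with 21 to 50 and 2.33% with over 50. The share that rose went the other way, from 9.09% and 5.45% up to 15.0% with over 50. A dense window averages many islands, and the standard error of a window difference was 0.17, 0.14 and 0.09 in the median for windows of 3 to 5, 6 to 10 and over 50 probes. With islands in place of windows, a choice made after the window result was seen, 74 of the 502 islands in island-poor windows fell (14.7%) and 32 rose (6.37%), where 12.3% of all 14232 islands fell and 10.6% rose. By island the share of falls was 15.3% and 16.1% in windows of 3 to 5 and 6 to 10 probes, 13.9% and 15.3% in windows of 11 to 20 and 21 to 50, and 11.3% in windows of over 50 probes. The steep decline by window was thus not seen by island. The share of islands that rose was 8% and 6.23% in windows of 3 to 5 and 6 to 10 probes and 12.1% in windows of over 50, while the median standard error was 0.18 in island-poor windows and 0.15 over all islands. Of the windows of 1 or 2 probes, 2 of 46 fell and 1 rose, with a median standard error of 0.33.

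**Figure D3:**
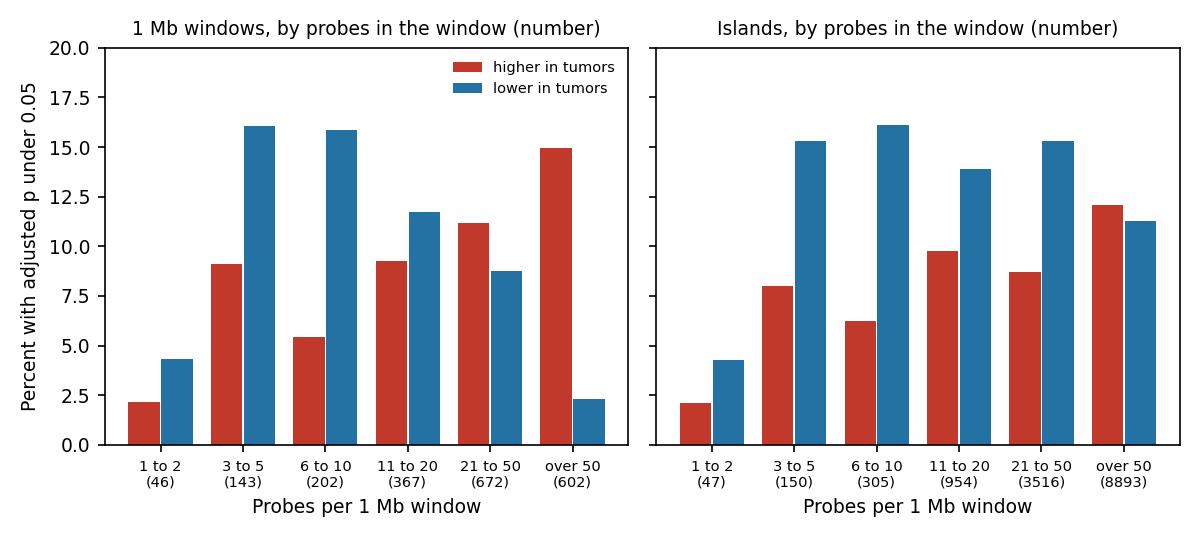
Percent of 1 Mb windows (left) and of islands (right) with an adjusted p under 0.05, higher in tumors (red) or lower (blue), by the number of probes in the window, with the number of windows or islands in brackets. By window the blue bars go from 15.8% at 6 to 10 probes down to 2.33% at over 50, and by island from 16.1% to 11.3%.

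Where a called window held more than 1 island, the islands could be compared with each other. All islands had the sign of the window in 4 of 4 such windows that rose and in 12 of 17 that fell. Among the other windows all islands shared the sign in 48 of 192 rises and 38 of 109 falls, where there were more islands to differ. A median of 80% of the probes of a fallen window and 100% of the probes of a risen window had its sign, and 2 and 3 windows were called although none of their probes passed alone.

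The 5 largest rises among the called windows were all windows of 1 island and are called R1 to R5. Window R1 on chromosome 3, with 6 probes at 101913260 to 101913656, measured -0.89, -0.86 and -0.82 in the glands and -0.52 to 2.72 with a median of 0.49 in the tumors. All 21 tumors lay above all 3 glands. The tumors were higher by 1.41 ± 0.41 (SE, adjusted p = 0.0173 in limma), and 5 of the 6 probes passed alone. By group the tumor medians were 0.37 (IR-3W), 0.09 (IR-7W) and 0.70 (Spontaneous), and IR-3W tumor 1 was far above the rest.

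Window R2 on chromosome 7, with 4 probes at 109425193 to 109425492, measured 0.19, 0.22 and -0.22 in the glands and 0.04 to 3.06 with a median of 1.62 in the tumors. In 20 of 21 tumors it lay above all glands, and the tumors were higher by 1.37 ± 0.47 (SE, adjusted p = 0.0422 in limma). Its level differed widely between tumors, with medians of 0.78 (IR-3W), 1.84 (IR-7W) and 1.64 (Spontaneous). This call was the least steady of the set, since leaving out any of 11 arrays ended it, with an adjusted p of 0.0502 to 0.0533 without any of 8 tumors and the values given below for the glands. The unenriched DNA itself was higher by 0.24 ± 0.08 (SE) in tumors at this window, which did not pass (adjusted p = 0.999 in limma).

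Window R3 on chromosome 2, with 9 probes at 221093154 to 221093808, measured 0.83, 0.11 and 0.80 in the glands and 0.63 to 2.55 with a median of 1.83 in the tumors. It lay above all glands in 20 of 21 tumors and was higher by 1.15 ± 0.29 (SE, adjusted p = 0.00834 in limma), with 8 of 9 probes passing alone. Gland 2 was well below the other glands here, and without it the difference was 0.92 (adjusted p = 0.12).

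Window R4 on chromosome 7, with 8 probes at 41109135 to 41109801, measured 0.24, -0.15 and 0.35 in the glands and 0.21 to 1.84 with a median of 1.00 in the tumors. The mean difference was 0.95 ± 0.25 (SE, adjusted p = 0.0098 in limma) and lay above all glands in 20 of 21 cases. Window R5 on chromosome 6, with 8 probes at 65812136 to 65812569, measured 0.10, -0.57 and -0.65 in the glands and -0.16 to 1.43 with a median of 0.65 in the tumors. It was higher by 0.92 ± 0.28 (SE, adjusted p = 0.0221 in limma), but 5 of 21 tumors overlapped gland 1. Without gland 2 the differences of R1, R2, R4 and R5 were 1.41, 1.45, 0.81 and 0.82 with adjusted p of 0.102, 0.137, 0.114 and 0.162. With normexp the differences of R1 to R5 were 0.55, 0.63, 0.41, 0.35 and 0.37, and the first 4 lost their call (adjusted p of 0.0708, 0.212, 0.208 and 0.105). That of R5 also ended with dim probes left out (0.0537) and with the median over its probes (0.0534). The calls of R1, R2 and R5 also ended without gland 3 (adjusted p of 0.075, 0.19 and 0.153), and those of R1 and R2 without gland 1 (0.0638 and 0.0987).

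The 5 largest falls among the called windows, L1 to L5, were smaller and steadier between arrays than R1 to R5. Window L1 on chromosome 5, with 4 probes at 113415518 to 113416600, measured 0.27, 0.51 and 0.38 in the glands and -0.62 to 0.02 with a median of -0.33 in the tumors. Glands and tumors did not overlap, and the tumors were lower by a difference of -0.70 ± 0.12 (SE, adjusted p = 0.000887 in limma). The SD over the tumors was 0.21, against 0.73 at window R1.

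Window L2 on chromosome 16, with 4 probes at 76026835 to 76027476, measured 0.08, 0.63 and 0.50 in the glands and -0.67 to 0.23 with a median of -0.28 in the tumors. The difference was -0.69 ± 0.16 (SE, adjusted p = 0.0046 in limma), with 18 of 21 tumors below all glands. Window L3 on chromosome 9, with 3 probes at 4112298 to 4112921, measured -0.26, -0.07 and -0.32 in the glands and -1.36 to -0.29 with a median of -0.82 in the tumors. The difference was -0.68 ± 0.16 (SE, adjusted p = 0.00436 in limma), and the 1 tumor that overlapped the glands was Spontaneous tumor 3, the tumor scanned on their day. There the difference was -0.07. With the median over its 3 probes in place of the mean, L3 differed by -0.25 (adjusted p = 0.425). Without gland 2 the adjusted p of L2 and L3 was 0.0853 and 0.0664, with differences of -0.57 and -0.61.

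Window L4 on chromosome 18, with 7 probes at 49254622 to 49255383, measured -0.42, -0.19 and -0.29 in the glands and -1.23 to -0.54 with a median of -0.92 in the tumors. Window L5 on chromosome 1, with 8 probes at 231600885 to 231602385, measured 0.09, 0.34 and 0.20 in the glands and -0.70 to -0.10 with a median of -0.40 in the tumors. Neither overlapped between tissues. The differences were -0.64 ± 0.11 and -0.63 ± 0.11 (SE), both with an adjusted p of 0.000638 in limma, and 6 of the 8 probes of L5 passed alone. The share of enriched spots well above background was 73.8%, 82.1%, 85.7%, 73.5% and 92.3% in the tumors at L1 to L5, against 100% at L1 to L3, 95.2% at L4 and 95.8% at L5 in the glands. At R1 to R5 it was 90.5%, 100%, 96.8%, 90.5% and 72.6% in the tumors and 83.3%, 100%, 92.6%, 87.5% and 75% in the glands. With normexp all 5 falls kept their call at differences of -0.45, -0.43, -0.32, -0.21 and -0.41, and on the rebuilt LogOdds all 5 lost it (adjusted p of 0.261, 0.305, 0.456, 0.539 and 0.402). With slide in the fit R1 to R5 differed by 1.06, 0.23, 0.86, 1.04 and 0.67 and L1 to L5 by -0.95, -0.65, -0.22, -0.72 and -0.52. With scan day they differed by 1.06, 0.38, 0.39, 0.74 and 0.47 and by -0.83, -0.42, -0.07, -0.61 and -0.40. All 10 lost their call with either (adjusted p of 0.26 to 0.989 in limma). With slide in the fit the value of a window is Spontaneous tumor 3 minus gland 2 alone. The larger differences with slide at R4, L1 and L4 thus rest on 1 pair of arrays.

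**Figure D4:**
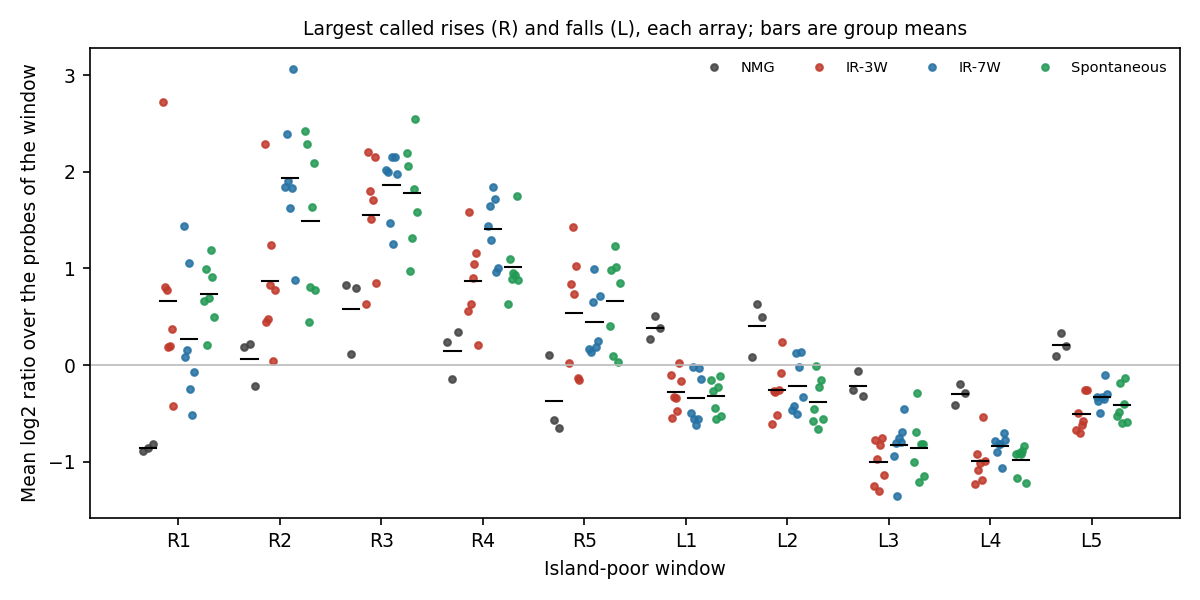
Mean log2 ratio over the probes of the window (vertical axis) on each array for the 5 island-poor windows with the largest rises (R1 to R5) and falls (L1 to L5) among those past an adjusted p of 0.05, with points for arrays, colors for the 4 groups and bars for group means. All tumors lie above the glands at R1 and below them at L1, L4 and L5, and the tumors are more scattered in the rises.

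Among single probes the largest rise was that of a probe of window R1 (chromosome 3, 101913260 to 101913319), by 1.94 ± 0.58 (SE, adjusted p = 0.018 in limma). Its enriched signal was well above background on 2 of 3 gland arrays and 18 of 21 tumor arrays. It measured -1.61, -1.47 and -1.18 in the glands and -1.75 to 2.83 with a median of 0.42 in the tumors, so 1 tumor lay below the glands. A probe of window R2 (chromosome 7, 109425448 to 109425492) rose by 1.60 ± 0.51, and by normexp it differed by 0.83 and did not pass (adjusted p = 0.144). By normexp the rise of the probe of R1 was 0.70 (adjusted p = 0.0244). The values of the probe of R2 were 0.28, -0.07 and -0.20 in the glands and 0.22 to 3.43 with a median of 1.78 in the tumors. The largest fall, of -1.58 ± 0.30 (SE), was at chromosome 16, 35996681 to 35996725. That probe measured 0.76, 1.54 and 1.56 in the glands and -1.06 to 0.64 with a median of -0.28 in the tumors, with no overlap. A probe at chromosome 11, 55843836 to 55843880, differed by -1.57 ± 0.18 (SE), and it was the only one of the 6 probes named here that still passed with scan day as a block (-1.53, adjusted p = 0.0349). With slide in the fit all 6 lost their call, this one at -1.51 (adjusted p = 0.13). It measured 1.95, 2.25 and 2.61 in the glands and 0.26 to 1.18 with a median of 0.65 in the tumors, so again no tumor reached the glands. With the block on scan day the probe on chromosome 16 differed by -1.57 (adjusted p = 0.124), and the rising probes on chromosomes 3, 6 and 7 differed by 1.21, 0.99 and 0.50 (adjusted p of 0.626, 0.690 and 0.840). The windows of these falling probes also fell, by -0.53 ± 0.14 and -0.40 ± 0.11 (SE).

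A window on chromosome 6 held probes that moved in opposite directions. At 22444083 to 22444131 a probe rose by 1.64 ± 0.52 (SE, adjusted p = 0.023 in limma), from -0.79, -1.03 and -0.59 in the glands to -0.70 to 2.52 with a median of 0.61 in the tumors. In the same window at 22773593 to 22773637 a probe fell by a difference of -1.52 ± 0.23 (SE), from 1.21, 1.62 and 2.02 in the glands to -0.46 to 0.95 with a median of -0.02 in the tumors. By normexp the rising probe differed by 0.63 and did not pass (adjusted p = 0.0583). With scan day as a block the fall was -1.39 (adjusted p = 0.0637). The 7 probes of the island of the first, at 22443319 to 22444131, differed by 1.16 ± 0.48 (SE, adjusted p = 0.086 in limma over islands). Both probes of the island of the second, at 22772839 to 22773637, passed, and their mean differed by -1.18 ± 0.21 (SE, adjusted p = 0.00047). Over its 9 probes the window differed by 0.64 with an adjusted p of 0.261, so it was not counted among the called windows. The calls of all 3 rising probes named here ended without any 1 of the glands.

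The longest unbroken stretches were 4 adjacent island-poor windows each. On chromosome 13, from 36000000 to 39999999, 28 probes in 6 islands had a mean over the windows of 0.23, 0.30 and 0.45 in the glands and -0.13 to 0.32 with a median of 0.14 in the tumors. Its windows differed by 0.04, -0.55, -0.29 and 0.07, and the middle pair passed (adjusted p of 0.00352 and 0.0275 in limma). On chromosome 15, from 5000000 to 8999999, 22 probes in 5 islands measured 1.33, 0.80 and 1.24 in the glands and 0.82 to 1.90 with a median of 1.31 in the tumors. Here the differences were 0.11, 0.31, 0.73 and -0.32, and the third passed as a rise (adjusted p = 0.043). Most island-poor windows had no island-poor window directly beside them, and 246 of the 307 stretches were 1 window long. A window without any probe also ended a stretch, and 524 of these lay between the first and last windows of the chromosomes.

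The spread among tumors was wider in island-poor windows, with a median SD of 0.29 against 0.15 in the other windows. The same was true among the glands (0.18 and 0.10), and per probe the median SD among tumors was 0.45 in windows of 3 to 5 and of 6 to 10 probes and 0.43 in those of over 50. Of the windows of at least 2 probes, the widest spread among tumors was at window S1 on chromosome 20, at window R2 and at window S3 on chromosome 3. Window S1, with 6 probes at 34906001 to 34906863, had an SD of 0.91 and measured 2.64, 1.80 and 3.41 in the glands and 0.37 to 3.96 with a median of 1.57 in the tumors. In 13 of 21 tumors it lay below all glands, and the difference of -0.84 ± 0.53 (SE) did not pass (adjusted p = 0.299 in limma). At R2 the SD was 0.83. At S3, with 2 probes at 26059116 to 26059190, it was 0.82, and the enriched signal of its 2 probes was well above background in only 52.4% of the tumor spots.

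The study was built around age at irradiation, and IR-7W and IR-3W tumors were compared window by window. By the study, IR-7W tumors were mostly positive for the estrogen receptor and none was negative, while IR-3W tumors were described as negative. Differences by age at irradiation and by receptor status thus cannot be told apart. In limma 0 island-poor windows and 0 island-poor probes passed an adjusted p of 0.05, as did 0% of all windows and all probes. At an unadjusted p under 0.05 there were 43 island-poor windows (11%, against 9.04% of all). In IR-7W 39 of them were higher and 4 lower (9.97% and 1.02%, against 7.21% and 1.83% of all windows). Of the island-poor probes 182 had such a p (8.06%, against 6.49% of all probes), of which 163 were higher and 19 lower (7.22% and 0.841%, against 4.1% and 2.39% of all). The median difference, IR-7W minus IR-3W, was 0.03 over island-poor windows and -0.01 over all windows. It was positive in 57.0% and 46.6% of them. Leaving out any 1 of the 14 tumors kept the share of positive island-poor windows between 54.7% and 59.3%, and with normexp background correction it was 48.6%, against 35.8% of all windows. With slide in the fit it was 65.7%, against 62.6% of all, and on the rebuilt LogOdds 88.7%, against 91.3%, so that there the island-poor share was the lower one. With window medians both shares were alike, at 55.8% and 55.6%. On the rebuilt LogOdds 13 island-poor windows passed, all higher in IR-7W (3.32%, against 1.08% of all windows). Without IR-7W tumor 7, 2 island-poor windows passed (0.512%, against 0.422% of all) and 4 probes (0.177%, against 0.0881% of all).

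The smallest p among windows of at least 2 probes belonged to window E1 on chromosome 5, with 8 probes at 125316019 to 125317417. It measured 0.29 to 0.97 with a median of 0.61 in IR-3W and 0.69 to 1.68 with a median of 1.40 in IR-7W. The difference was 0.68 ± 0.15 (SE, adjusted p = 0.137 in limma), and the groups overlapped. It was 0.87, 0.38, 0.94 and 0.70 within the 4 scan days that held both groups. Without IR-7W tumor 7 it was 0.79 (adjusted p = 0.0251). The Spontaneous tumors covered both groups, from 0.35 to 2.11. Window E2 on chromosome 7, with 7 probes at 76210210 to 76211172, measured -0.02 to 0.80 with a median of 0.13 in IR-3W and 0.62 to 1.89 with a median of 0.92 in IR-7W. Its difference was 0.76 ± 0.19 (SE, adjusted p = 0.186 in limma), and within scan days it ran from 0.08 to 1.02. On the rebuilt LogOdds both E1 and E2 passed (adjusted p of 0.0179 and 0.0172).

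Lower in IR-7W by the smallest p were window E3 on chromosome 2 (8 probes at 240070490 to 240877577) and window E4 on chromosome 9 (9 probes at 112570882 to 112617927). E3 measured 0.93 to 1.81 with a median of 1.07 in IR-3W and 0.58 to 1.10 with a median of 0.78 in IR-7W, and E4 measured 0.21 to 0.73 with a median of 0.46 and 0.13 to 0.41 with a median of 0.24. The differences were -0.41 ± 0.14 and -0.23 ± 0.08 (SE), with adjusted p of 0.352 and 0.357 in limma, and the groups overlapped in both. Within scan days they ran from -0.70 to -0.04 and from -0.34 to -0.02. When the Spontaneous tumors were taken in, 0 island-poor windows passed a moderated F test of any difference among the 3 tumor groups in limma, as did 0% of all windows, and 46 had an unadjusted p under 0.05 (11.8%, against 10.7% of all windows).

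Each tumor group was also set beside the same 3 glands, which the groups share. The median difference over island-poor windows was 0.04 for IR-3W, 0.08 for IR-7W and 0.04 for Spontaneous tumors. Over all windows of chromosomes 1 to 20 it was 0.08, 0.06 and 0.01. The windows that were higher than the glands numbered 217 (55.5%, against 64.8% of all), 237 (60.6%, against 61.0%) and 212 (54.2%, against 51.4%) of 391.

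The unenriched DNA is part of every ratio and was compared by itself. In limma 0 island-poor windows passed an adjusted p of 0.05, where 0.0468% of all windows, a single one, did. At an unadjusted p under 0.05, 28 island-poor windows were higher in tumors and 2 lower (7.16% and 0.512%), against 2.86% and 0.141% of all windows. Without gland 2 these counts were 28 and 9 (48 and 23 over all windows), without gland 3 they were 14 and 1 (31 and 1) and, with a block on scan day, 11 and 8 (31 and 20). With a block on slide they were 47 and 3, against 249 and 17 over all windows, so that the share among island-poor windows was close to that of all. The median difference was 0.04 in island-poor windows and 0.01 over all windows on the log2 scale. With gland 2 left out it was -0.01 and -0.03. Of the windows called on the ratio, 4 of the 25 rises and 1 of the 57 falls had an unadjusted p under 0.05 in the unenriched DNA, against 4 of 199 rises and 2 of 116 falls among the other windows. Windows R2 and R4 were among the rises, at 0.24 ± 0.08 and 0.16 ± 0.07 (SE). At the other named rises and falls the unenriched difference ran from -0.15 to 0.10. Its part in the ratios was not tested. The largest difference in unenriched DNA among those 30 windows was on chromosome 3, from 69000000 to 69999999, and was chosen after its value was seen. Its 3 probes were dim, at -3.35, -2.81 and -3.69 in the glands and -2.93 to 0.38 with a median of -1.95 in the tumors, on the log2 scale relative to the array median.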

How the data were processed

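DNA of 24 tissues was measured on 2-color CpG island arrays. Per the file headers, the intensity values deposited by the authors are the processed Cy5 and Cy3 signals of Agilent Feature Extraction 10.7.3.1, background-subtracted, detrended over the slide and scaled linearly between dyes. A deposited table of the series holds log2 ratios for 91897 probes, made by the authors from the same arrays. On each array 97.9% to 99.6% of them equalled the ratios computed here within 0.001, and they were used as an alternative.

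For each probe Cy5 was divided by Cy3 and log2 was taken, 0 to 35 outlier spots per array were left out, and each array was centered on its median over 93024 probes. Window values are means over probes. limma 3.58.1 in R 4.3.3 was fitted over all probes or over all 2135 windows, with Benjamini-Hochberg adjustment and a threshold of 0.05, and the code was tested on simulated data. Tables and plots used Python 3.11.15 with numpy 2.4.6, pandas 2.3.3 and matplotlib 3.10.9. Named windows are the 5 largest rises and falls, among called windows of at least 2 probes with enriched signal above background on at least 1 array of each tissue for 50% or more of their probes, the 2 highest and 2 lowest gland levels of at least 5 probes, the 3 largest SDs among tumors, the 2 smallest p in each direction between IR-7W and IR-3W, and the longest stretches. Named probes are the 3 largest rises and falls among called probes with both channels above background on at least 1 array of each tissue, at most 1 per window and direction, and 20 called probes below background were passed over. The members and these lists were chosen with earlier results of these data known.

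The alternatives were normexp background correction (offset 50), quantile normalization, scaling by array SD, a rebuilt LogOdds (limited to 16, without the melting temperature term), the deposited ratios, dim probes left out, slide or scan day as a block, a block on replicate number, the methods' t-test (run here on the log2 ratios and with no minimum difference, where the study tested LogOdds with one), Welch's test, 1 tumor per rat, window medians, other limits on probe number, a shifted grid and each array left out in turn. Islands were added after the data were seen. Arrays correlated with each other at 0.738 to 0.953, and no pair was a duplicate. P-values describe the spread among these tissues. Gene names and sequences are not used here.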

Additional observations from a re-analysis of the deposited data

Results flagged for a closer look

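Single arrays stood apart within their group of 7 at 5 named windows, by the gap to the nearest array of the group divided by the range of the group. At window R1 it was IR-3W tumor 1, with 2.72, where the other IR-3W tumors ran from -0.42 to 0.81. The same tumor stood apart at window H1 with 6.18 (others 3.51 to 3.98) and at window H2 with 6.28 (others 3.35 to 4.13). Spontaneous tumor 6 stood apart at window R4 with 1.75 (others 0.63 to 1.097), and IR-7W tumor 4 at window E2 with 1.89 (others 0.62 to 1.15). These are 5 of 72 combinations tested. Chance marks about 1 in 20 where windows are not picked by their values. The named windows were picked by such values, so that rate does not hold for them. No value was left out for this reason.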

How the results depend on the processing

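The number of island-poor windows called between tumors and glands (82) kept within 1.5 times under all scalings and tests tried, but was 0 once slide or scan day entered the fit as a block, 39 of 189 windows of 5 or fewer probes (20.6%) and 159 of 758 of 20 or fewer (20.98%), against 18.6% of all windows, and 22 to 87 with an array left out. Without gland 2 it was 22 (5.63%, 4.31% of all), and without gland 3 it was 38 (9.72%, 8.15% of all). The probe calls (482) were 1 after blocking on slide (0.0443%, 0.0183% of all), 23 after blocking on scan day (1.02%, 0.74% of all) and 210 to 525 with an array left out (210 without gland 2, or 9.30% against 10.4% of all, and 223 without gland 3, or 9.87% against 10.5%). The glands share a scan day with 1 tumor, so tissue and scan day cannot be told apart beyond that tumor.

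The percent of called windows that rose was 30.5 (56.4 over all windows). It was 20.3 with normexp (16.3 over all, so the island-poor share was the higher one there), 20.4 with quantile normalization (31.1), 100 on the rebuilt LogOdds (100), 53.0 by Welch's test (61.9), 32.6 with window medians (37.6), 28.9 with dim probes left out (40.3), 38.7 on the shifted grid (58.3) and 13.2 to 30.9 with an array left out (13.2 without gland 3, 13.6 without gland 2). For probes it was 39.6 (46.1 over all), and 93.9 on the rebuilt LogOdds (97.2), 100 after blocking on slide (1 call, 70.6 over all), 26.1 after blocking on scan day (30.7) and 24.2 to 42.7 with an array left out (24.2 without gland 3, 29.0 without gland 2). By island, added after the data were seen, there were 106 calls, of which 30.2% rose (46.2 over all islands). After blocking on scan day 3 of these islands fell (0.598%, 0.183% of all) and 0 rose (0.0843% of all). Among the named windows, Welch's test ended the calls of R3, R5 and L2 (adjusted p of 0.0917, 0.134 and 0.134) and of the falling probes on chromosomes 16 and 6 (0.063 and 0.0619), and the methods' t-test that of R2 (0.0548). The cause of these shifts was not tested.

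Between IR-7W and IR-3W, 0 probes and windows were called, against 2 probes with scaling by array SD (0.0885%, 0.138% of all) and, on the rebuilt LogOdds, 6 probes (0.266%, 0.218% of all) and 13 windows (3.32%, 1.08% of all). With an array left out there were 0 to 4 probes and 0 to 2 windows, the most without IR-7W tumor 7. The F test over tumor groups and the unenriched DNA stayed at 0 with any array left out. The methods' t-test, run on the log2 ratios with no minimum difference, called 480 probes (21.2%, 23.1% of all) and 78 windows (19.9%, 18.5% of all) between tumors and glands after Benjamini-Hochberg adjustment. Between IR-7W and IR-3W it called 0 and 0, and Welch's test also called 0.

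Groups share replicate numbers in the labels. Deviations of same-numbered samples correlated at -0.43 to 0.68 over 30 pairs, and 2 of 21 tumors matched best the same number in another group, so the samples share only a number. With the replicate number as a block 420 probes (18.6%, 20.5% of all) and 84 windows (21.5%, 20.05% of all) were called.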
